A study of Mus musculus with 8 samples.

Results

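The genes described here were 10 arterial proteoglycan and hyaluronan-matrix genes, *Prg4*, *Lum*, *Dcn*, *Bgn*, *Vcan*, *Acan*, *Hspg2*, *Hapln1*, *Has2* and *Cd44*, taken by gene symbol from the 21859 genes counted. RNA-Seq was performed on whole aortas of 4 ApoE-/- and 4 WT mice, all male, on the C57BL/6 background, 40 weeks old and kept on a normal chow diet. ApoE-/- mice lack apolipoprotein E in every cell from birth and develop atherosclerosis. Whether the WT mice were littermates is not given in the sources used here. The comparison asks which of the matrix genes differ in RNA level between aortas of an atherosclerosis-prone and a normal mouse. All 10 genes passed the filter on low counts, which kept 15077 genes for testing.

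Proteoglycans are proteins that carry long, negatively charged sugar chains, and in the artery wall they fill the space between collagen and elastic fibres. The chains hold water and bind low-density lipoprotein, and lipoprotein retained by intimal proteoglycans is an early step in plaque formation. The small leucine-rich members (*Dcn*, *Lum*, *Bgn*) sit on collagen fibrils, the large aggregating members (*Vcan*, *Acan*) are tied by the link protein of *Hapln1* to hyaluronan, which is made by *Has2* and bound at the cell surface by *Cd44*, and *Hspg2* encodes perlecan, the heparan sulfate proteoglycan of basement membranes. *Prg4* encodes lubricin, a mucin-like lubricant best known from joint surfaces.

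Between 23240995 and 23940156 read pairs were assigned to genes in the ApoE-/- libraries and between 18375898 and 21664598 in the WT libraries. *Apoe*, the deleted gene, was at 14.7 to 36.3 CPM (read counts scaled to library size with TMM factors) in ApoE-/- and at 536 to 857 CPM in WT. Of the ApoE-/- libraries, 2 stood apart. Replicate 1 had a summed level of 5842 CPM over 8 sympathetic neuron genes, against 29.0 to 402 CPM in the other ApoE-/- libraries and 242 to 934 CPM in WT, and its summed level of 10 contractile smooth muscle genes was 5123 CPM, against 12795 to 21084 CPM in the other ApoE-/- libraries and 11382 to 21348 CPM in WT. Replicate 3 had a summed level of 427 CPM over 14 cartilage genes, against 62.6 to 81.8 CPM in all 7 others. Calls of the 10 genes, and of the related genes named below, that changed without either library are given beside them. The share of read pairs assigned to genes also parted the genotypes, at 32.3 to 35.6% in ApoE-/- and 27.9 to 30.2% in WT (exact permutation p = 0.0286), and its part in the results was not tested.

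Of the 10 genes, *Prg4* rose in ApoE-/- aortas by edgeR's quasi-likelihood test at an adjusted p below 0.05 and none fell. Among all genes tested, 0.371 % were called higher and 0.0929 % lower, 0.464 % in all. At an unadjusted p below 0.05 the same test had 4 of the 10 genes, *Prg4*, *Lum*, *Cd44* and *Has2*, all higher, against 11.4 % of all genes in either direction. DESeq2 called the same 4 genes higher and none lower, against backgrounds of 3.23 % and 1.75 % of genes (4.97 % in all), and limma-voom called *Prg4* alone. In these 4 genes every ApoE-/- mouse lay above every WT mouse, a pattern held by 5.41 % of the tested genes, and in none of the 10 did every ApoE-/- mouse lie below every WT mouse, as was the case for 3.3 %. All 10 log2 fold changes were above 0, as were 8747 of the 15077 genes tested, with a median of 0.85 against 0.05 over all genes tested. The direction was not stable for *Dcn*, *Acan*, *Hspg2* and *Hapln1*, each of which was below 0 in at least 1 alternative fit.

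**Figure D1:**
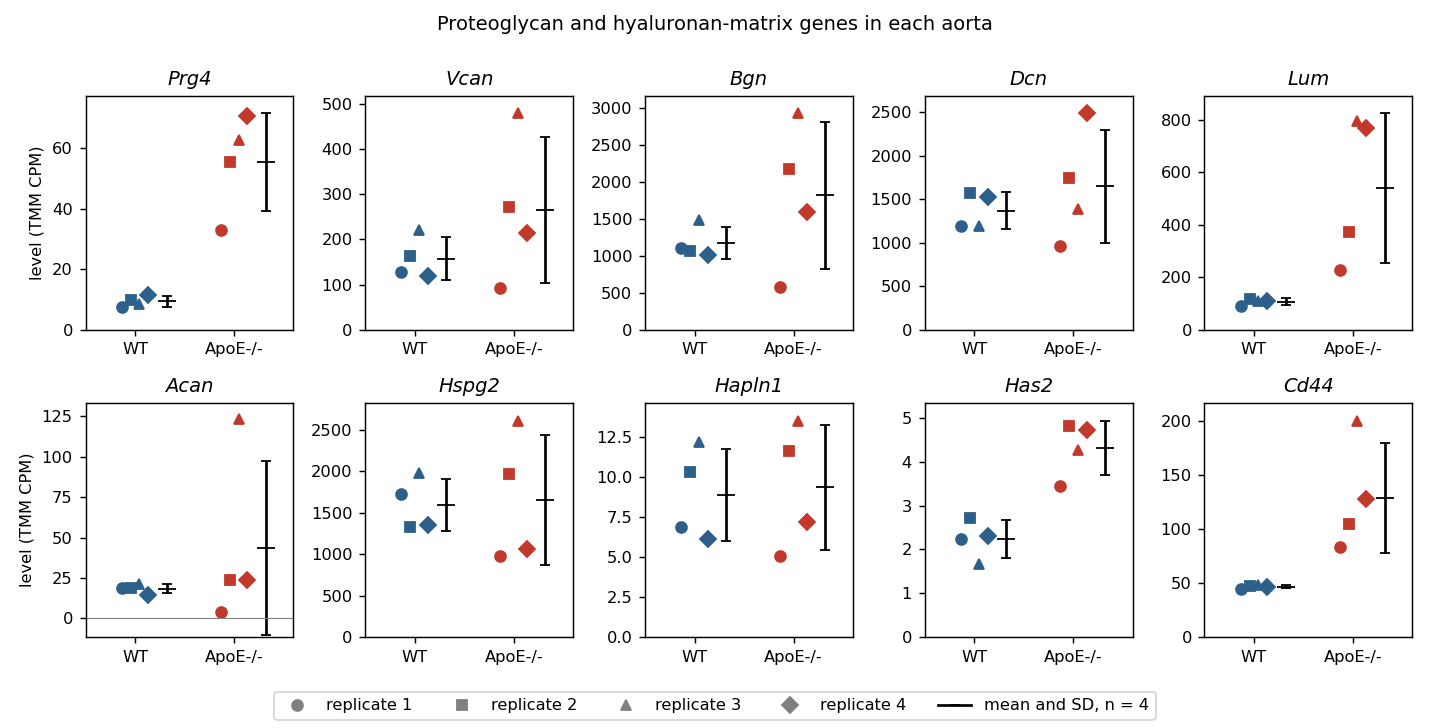
Level of each of the 10 genes in TMM-scaled CPM, 1 panel a gene with its own axis, in 4 WT (blue) and 4 ApoE-/- (red) aortas. Symbols mark the replicate number and black bars the mean and SD of 4 mice. For *Prg4*, *Lum*, *Has2* and *Cd44* the red and blue symbols do not overlap, and the ApoE-/- bar of *Acan* reaches below 0 because replicate 3 stands alone at 123 CPM.

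*Prg4* (ENSMUSG00000006014.16) lies on the minus strand of GRCm38 at chr1:150449412-150466165. Lubricin is built around a long proline- and threonine-rich domain made of short repeats, and these repeats are also present in the RNA. In the transcript Prg4-208 of the GENCODE annotation the 15-base unit CAAGGAGCCTGAACC occurred 47 times in a coding sequence of 3663 bases, all 47 in exon 6 of 12. The stretch of exon 6 below, chr1:150455343-150455582 on the minus strand, is shown because it bears on how reads of this gene can be counted, with its 10 copies of the unit in capitals.

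Prg4 exon 6: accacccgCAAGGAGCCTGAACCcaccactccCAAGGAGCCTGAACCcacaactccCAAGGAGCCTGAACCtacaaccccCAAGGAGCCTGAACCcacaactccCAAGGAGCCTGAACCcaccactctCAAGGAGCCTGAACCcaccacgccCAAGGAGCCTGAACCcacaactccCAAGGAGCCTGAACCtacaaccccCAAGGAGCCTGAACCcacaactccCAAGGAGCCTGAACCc

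Repetition of this kind meant that 18.1% of the 50-base windows of the longest *Prg4* transcript, 764 of 4214, occurred in it more than once. Reads were 50 bases long and only uniquely aligned pairs were counted, and what this did to the *Prg4* level in either genotype was not tested. Counted on either strand, 3.97% of distinct *Prg4* windows also occurred in transcripts of other genes. Because opposite-strand matches were included, this share can hold the overlap with *Tpr* given below.

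*Prg4* reached 32.8, 55.2, 62.6 and 70.6 CPM in ApoE-/- replicates 1 to 4 (808, 1263, 1436 and 1627 read pairs). In WT replicates 1 to 4 it was at 7.44, 9.64, 8.59 and 11.5 CPM (162, 206, 155 and 241 read pairs). Every knockout aorta was thus above every WT aorta, and the lowest ApoE-/- value was 2.84 times the highest WT value. The means were 55.3 ± 16.3 and 9.30 ± 1.74 CPM (SD, n = 4), a log2 fold change of 2.57 with a standard error of 0.26 and an edgeR adjusted p of 0.0353, the third smallest p of all genes tested. With DESeq2 the log2 fold change was 2.56 at an adjusted p of 1.00e-16. The difference of the mean CPM gave an exact two-sided permutation p of 0.0286, the smallest that 70 assignments of 4 against 4 mice allow. Leaving out 1 mouse kept the log2 fold change between 2.43 and 2.76, but the edgeR adjusted p ranged from 0.00135 without ApoE-/- replicate 1 to 0.146 without WT replicate 2 and passed 0.05 in only 2 of 8 such fits, without ApoE-/- replicate 1 and without ApoE-/- replicate 2. In the same 8 fits DESeq2 adjusted p-values did not exceed 7.49e-12. On the opposite strand, *Prg4* shares 204 exon bases with *Tpr*, and the libraries were stranded.

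Of the 3 small leucine-rich proteoglycans, only *Lum* was higher in every ApoE-/- mouse than in any WT mouse. *Lum* encodes lumican, which regulates the diameter and spacing of collagen fibrils, and lies at chr10:97565128-97572703 beside *Dcn* at chr10:97479609-97518143, both on the plus strand (ENSMUSG00000036446.5 and ENSMUSG00000019929.16). *Lum* was at 226, 372, 797 and 767 CPM in ApoE-/- replicates 1 to 4 and at 88.7, 118, 111 and 109 CPM in WT. The WT mice were within a narrow range, and the ApoE-/- mice spread widely but all lay above it. Means were 541 ± 285 against 107 ± 12.6 CPM (SD, n = 4), with a log2 fold change of 2.34, SE 0.40. The edgeR adjusted p of 0.0526 just missed the threshold, whereas DESeq2 gave 4.65e-07. Without ApoE-/- replicate 1 the edgeR adjusted p was 0.00621 at a log2 fold change of 2.60, and without any other single mouse it was between 0.0642 and 0.202.

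*Dcn*, which encodes decorin, a collagen-binding proteoglycan that also binds TGF-beta, was at 965, 1746, 1384 and 2490 CPM in ApoE-/- and at 1185, 1572, 1186 and 1530 CPM in WT. The 2 genotypes overlapped, with the lowest and the highest of all 8 values in ApoE-/- mice. The difference, 0.27 ± 0.30 on the log2 scale (SE), missed the threshold at an edgeR adjusted p of 0.824 and was -0.0034 without ApoE-/- replicate 4. Biglycan, the product of *Bgn* (chrX:73483602-73495933, plus strand, ENSMUSG00000031375.17), is found with retained lipoproteins in mouse plaques. *Bgn* was at 579, 2173, 2927 and 1582 CPM in ApoE-/- and at 1109, 1066, 1486 and 1010.0 CPM in WT. Replicates 2 to 4 of ApoE-/- were above all WT mice and replicate 1 below all of them. A difference of 0.64 ± 0.44 on the log2 scale (SE) missed the threshold at an edgeR adjusted p of 0.712, and without ApoE-/- replicate 1 it was 0.94 with an edgeR adjusted p of 0.0841 and a DESeq2 adjusted p of 0.00275.

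Per kilobase of merged exons, the scale on which levels can be set between genes, *Lum* was at 0.178, 0.179, 0.222 and 0.170 times the level of *Dcn* in WT replicates 1 to 4. In ApoE-/- replicates 1 to 4 the same ratio was 0.559, 0.508, 1.37 and 0.734. Every ApoE-/- aorta thus held more lumican RNA relative to decorin RNA than any WT aorta, including replicate 1, in which both genes were at their ApoE-/- minimum. The ratio of *Bgn* to *Dcn*, by contrast, ran from 0.574 to 2.02 in ApoE-/- and from 0.632 to 1.20 in WT, so that the WT range lay inside the ApoE-/- range. These ratios are descriptions and were not tested.

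The aggregating proteoglycans and their link protein overlapped between genotypes. *Vcan* (chr13:89655312-89742509, minus strand, ENSMUSG00000021614.16) encodes versican, the main large chondroitin sulfate proteoglycan of the arterial intima. It was at 92.1, 272, 481 and 214 CPM in ApoE-/- replicates 1 to 4 and at 127, 163, 222 and 119 CPM in WT. Replicate 1 of ApoE-/- was the lowest of all 8 and replicate 3 the highest, 5.22 times apart. The difference was 0.75 ± 0.45 on the log2 scale (SE, edgeR adjusted p 0.645), and it was 0.29 without ApoE-/- replicate 3 and 1.04 without ApoE-/- replicate 1, where DESeq2 gave an adjusted p of 0.0212.

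*Acan* (chr7:79053483-79115099, plus strand, ENSMUSG00000030607.7), which encodes aggrecan, the large proteoglycan of cartilage that is also present in the arterial media, was at 3.90, 23.8, 123 and 23.9 CPM in ApoE-/- and at 18.8, 18.6, 21.5 and 14.4 CPM in WT. The WT mice and ApoE-/- replicates 2 and 4 lay close together, and the other 2 knockout aortas lay far from them in opposite directions. The coefficient of variation was 123% in ApoE-/- and 16.0% in WT. The difference of 1.25 ± 0.84 on the log2 scale (SE) had an edgeR adjusted p of 0.695 and turned to -0.09 without ApoE-/- replicate 3, while without ApoE-/- replicate 1 DESeq2 called it higher (log2 fold change 1.63, adjusted p 0.0283). In the same replicate 3 the cartilage collagen gene *Col2a1* was at 240 CPM, against at most 1.87 CPM in any other library, and *Sox9*, the cartilage transcription factor, was at 16.1 CPM, against at most 3.28 CPM elsewhere. *Col2a1* alone made up most of the cartilage sum of 427 CPM in that library. Also highest in replicate 3 were *Col11a2* at 50.7 CPM (at most 8.57 elsewhere), *Comp* at 89.4 (at most 64.1), *Col9a3* at 5.66 (at most 1.53) and *Chad* at 5.01 (at most 3.40). So were *Col9a1* and *Snorc*, at 1.35 and 1.26 CPM. *Col11a1*, by contrast, was at 14.2 CPM there, below the 27.0 CPM of ApoE-/- replicate 1 and the 21.3 CPM of WT replicate 2. *Col9a2*, *Cnmd* and *Matn3*, all below 3 CPM, were also not highest in replicate 3. The cartilage matrix genes *Matn1* and *Ucma* had at most 3 read pairs in every library. What part cartilage-type RNA had in the *Acan* level of replicate 3 was not tested.

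*Hapln1*, whose link protein locks aggrecan and versican onto hyaluronan, lies beside *Vcan* at chr13:89539796-89611652 on the plus strand (ENSMUSG00000021613.9). It was at 5.03, 11.6, 13.5 and 7.20 CPM in ApoE-/- and at 6.84, 10.3, 12.2 and 6.13 CPM in WT, ranges that nearly coincided. EdgeR put the difference at 0.08 ± 0.35 on the log2 scale (SE, adjusted p 0.966). Perlecan is the matrix proteoglycan that smooth muscle and endothelial cells lay down in their basement membranes, and its gene *Hspg2* (chr4:137468769-137570630, plus strand, ENSMUSG00000028763.18) was at 983, 1963, 2609 and 1057 CPM in ApoE-/- and at 1722, 1324, 1977 and 1352 CPM in WT. The difference was 0.05 ± 0.35 on the log2 scale (SE, edgeR adjusted p 0.974), and its sign changed with the mouse left out.

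**Figure D2:**
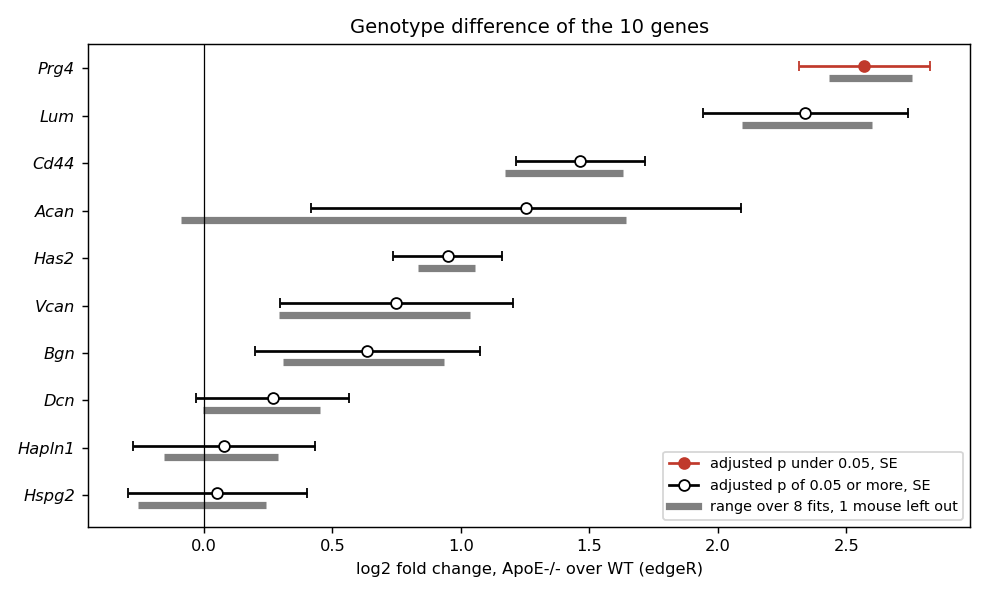
Log2 fold change of ApoE-/- over WT from edgeR for each gene (points, with standard error) and, as grey bars, the range of the same value over 8 fits that each left out 1 mouse. *Prg4* (filled) had an adjusted p of 0.0353, the bars of *Prg4*, *Lum*, *Cd44* and *Has2* start at 0.83 or more, and the bar of *Acan* runs from -0.09 to 1.64.

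On the hyaluronan side, the receptor gene *Cd44* and the synthase gene *Has2* were higher in every ApoE-/- mouse than in any WT mouse. *Cd44* (chr2:102811141-102901665, minus strand, ENSMUSG00000005087.17) encodes the main cell-surface receptor for hyaluronan, carried by leukocytes as well as by smooth muscle cells. It was at 83.3, 104, 200.03 and 127 CPM in ApoE-/- replicates 1 to 4 and at 44.9, 47.4, 48.3 and 46.0 CPM in WT. The WT mice differed by a coefficient of variation of 3.22%, the smallest of the 10 genes, and the lowest ApoE-/- value was 1.73 times the highest WT value. Means were 129 ± 50.8 and 46.6 ± 1.5002 CPM (SD, n = 4), with a log2 fold change of 1.47, SE 0.25. The edgeR adjusted p was 0.0526 and the DESeq2 adjusted p 1.59e-05. Without ApoE-/- replicate 1 edgeR gave 0.00871, and without any other single mouse 0.0723 to 0.202, with log2 fold changes from 1.17 to 1.63 over all 8 fits.

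*Has2* (chr15:56665627-56694539, minus strand, ENSMUSG00000022367.7) encodes a hyaluronan synthase of mesenchymal cells. Its level was low, at 3.45, 4.81, 4.27 and 4.73 CPM in ApoE-/- (85, 110, 98 and 109 read pairs) and 2.25, 2.71, 1.66 and 2.30 CPM in WT (49, 58, 30 and 48 read pairs). The genotypes did not overlap, with a gap of 1.27-fold between the lowest ApoE-/- and the highest WT mouse. The means of 4.32 ± 0.62 and 2.23 ± 0.43 CPM (SD, n = 4) gave a log2 fold change of 0.95, SE 0.21, an edgeR adjusted p of 0.0970 and a DESeq2 adjusted p of 0.00535. Without ApoE-/- replicate 1 the edgeR adjusted p was 0.0379. *Has2* shares 182 exon bases with the antisense gene *Has2os*. Counted on either strand, 2.10% of the 50-base windows of *Has2* occurred in other genes' transcripts, a share that can include this overlap. The other 2 synthase genes overlapped between genotypes. *Has3*, the most abundant of the synthase genes in WT per length, was at 11.9, 21.7, 20.3 and 12.4 CPM in ApoE-/- and at 19.6, 22.4, 28.0 and 20.1 CPM in WT, a log2 fold change of -0.44 with an edgeR adjusted p of 0.572. *Has1* was at 8.49 ± 3.79 against 4.63 ± 0.59 CPM (log2 fold change 0.87, edgeR adjusted p 0.312), and DESeq2 called it higher without ApoE-/- replicate 1. Both were named after their values were seen.

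**Figure D3:**
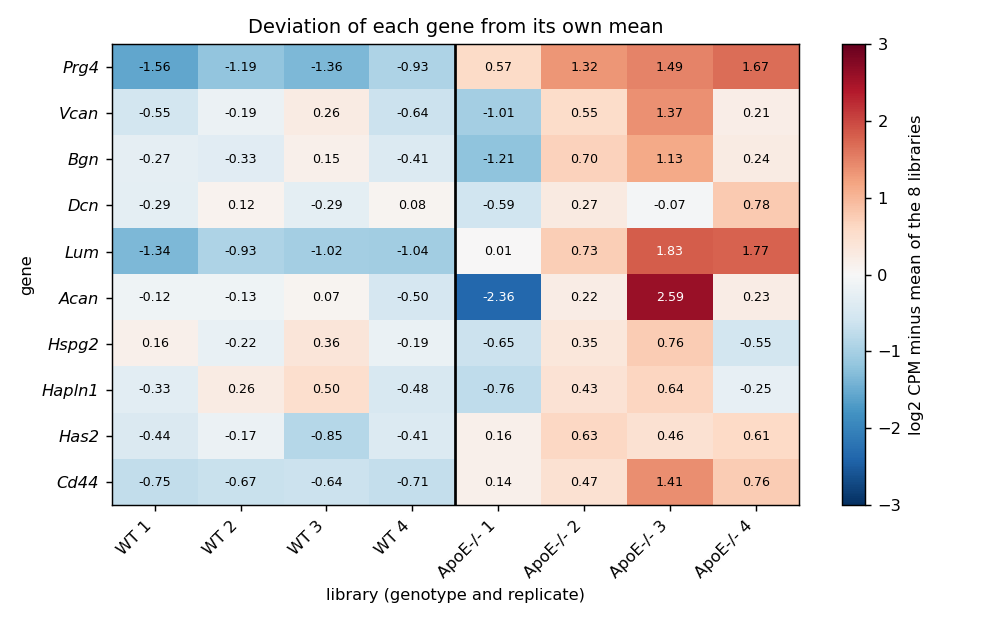
Log2 CPM of each gene in each library minus that gene's mean over the 8 libraries (prior count 2), blue below and red above the mean. The ApoE-/- replicate 1 column is the palest or bluest of the 4 knockout columns for all 10 genes, and *Prg4*, *Lum*, *Has2* and *Cd44* are above their means in all 4 knockout columns.

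Among the ApoE-/- mice, replicate 1 was the lowest of the 4 knockout mice for all 10 genes, whereas 30.1% of all tested genes had their lowest knockout value there. Replicate 3 was the highest for 7 of them, *Vcan*, *Bgn*, *Lum*, *Acan*, *Hspg2*, *Hapln1* and *Cd44*, against 19.6% of all tested genes. Together the 10 genes took 0.297%, 0.673%, 0.860% and 0.634% of the normalized counts in ApoE-/- replicates 1 to 4. In WT they took 0.431%, 0.433%, 0.507% and 0.420%, inside the knockout range. Among pairs of the 10 genes, *Vcan* and *Bgn* had the most alike profiles over the 8 libraries, with a root mean square distance of 0.189 between their centred log2 CPM values, followed by *Hspg2* and *Hapln1* at 0.293 and *Prg4* and *Lum* at 0.356.

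Leaving out ApoE-/- replicates 1 and 3 together, an alternative chosen after the data were seen, edgeR called *Prg4*, *Lum*, *Cd44* and *Has2* higher with adjusted p-values of 0.00283, 0.0130, 0.00556 and 0.0467. DESeq2 then called 6 of the 10, adding *Bgn* (log2 fold change 0.69, adjusted p 0.0246) and *Dcn* (0.63, adjusted p 0.0437). *Acan* was at a log2 fold change of 0.38 and *Hspg2* at -0.08 in that edgeR fit. With these mice left out, edgeR called 822 of 15269 genes (369 higher and 453 lower) and DESeq2 1781 (732 higher and 1049 lower), against 70 and 725 in the full set.

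Levels per kilobase of exons placed the collagen-associated and basement membrane genes first. In WT the order of means was *Dcn* at 234, *Bgn* at 191, *Hspg2* at 111, *Lum* at 43.6, *Vcan* at 10.9, *Cd44* at 6.88, *Acan* at 2.45, *Prg4* at 2.17, *Hapln1* at 1.502 and *Has2* at 0.527 CPM per kilobase. The WT ranges of neighbours in this order overlapped for *Dcn* with *Bgn*, for *Acan* with *Prg4* and for *Prg4* with *Hapln1*, so those neighbours were not ordered beyond their spread. The order rests on the length used. Per kilobase of the longest transcript, which for *Bgn* is 2666 bases against 6099 of merged exons, *Bgn* came first in WT at 438, without overlap with *Dcn* at 292, and the other places were as above. In ApoE-/- the order began with *Bgn* at 298, *Dcn* at 282, *Lum* at 221 and *Hspg2* at 116 CPM per kilobase, followed by *Cd44* at 19.0, *Vcan* at 18.3, *Prg4* at 12.9, *Acan* at 5.85, *Hapln1* at 1.58 and *Has2* at 1.02. Because of the spread among knockout mice, the only neighbours without overlap there were *Hspg2* and *Cd44*. Lubricin RNA was thus at the level of aggrecan RNA in WT and at 7.66 to 16.5 CPM per kilobase in the knockout mice, where versican ranged from 6.37 to 33.2.

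**Figure D4:**
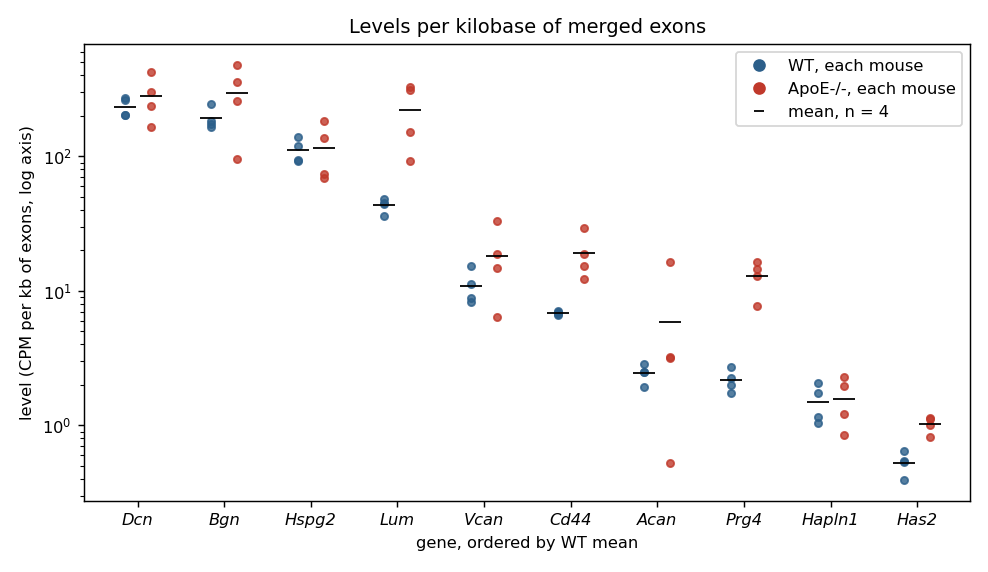
Level of each gene per kilobase of merged exons (CPM per kilobase, log axis) in each WT (blue) and ApoE-/- (red) mouse, with a bar at the mean of 4, genes ordered by WT mean. *Dcn*, *Bgn* and *Hspg2* lead in WT at 234, 191 and 111, and *Lum* moves from 43.6 in WT to 221 in ApoE-/-.

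The summed levels of several cell type marker lists also differed between the genotypes. The summed level of 15 macrophage genes was 677, 1390, 1774 and 3217 CPM in ApoE-/- replicates 1 to 4 and 510 to 603 CPM in WT, without overlap (exact permutation p = 0.0286). All 15 were higher on average in ApoE-/-, and 14 were higher without overlap, against 5.41 % of all genes tested. EdgeR called 2 of them higher and DESeq2 11, against 0.371 % and 3.23 % of all genes tested. Without ApoE-/- replicate 3 edgeR called 0 of all genes. *Mertk* overlapped between genotypes (log2 fold change 0.20, edgeR adjusted p 0.881). The 11 fibroblast genes summed to 3730, 6373, 10343 and 8765 CPM in ApoE-/- and to 3690 to 4476 CPM in WT (exact permutation p = 0.0857). Of these 11, 9 were higher on average, but only *Col3a1* without overlap, at a mean of 2653 against 1034 CPM, and DESeq2 called *Col1a1* and *Col3a1*. *Cd34* had a log2 fold change of 0.01, and *Dpep1* (-0.17) and *Clec3b* (-0.06) were below 0. T cell and B cell gene sums were higher in every ApoE-/- mouse than in any WT mouse, at 14.4 to 32.8 against 5.10 to 8.71 CPM and at 12.5 to 30.6 against 5.04 to 8.10 CPM. Of 7 tested T cell genes only *Il7r* was higher without overlap, at a mean of 13.3 against 2.34 CPM, and of 7 B cell genes 3 were, *Cd22*, *Blk* and *Pax5*. The cardiac muscle sum was lower without overlap, at 155 to 337 against 394 to 662 CPM. Of 8 tested cardiac genes 7 were lower without overlap, against 3.3 % of all genes tested. *Ryr2*, the most abundant of them, hardly differed, at a mean of 235 against 238 CPM (log2 fold change -0.02). The endothelial sum overlapped, at 1759 to 2692 against 2493 to 3021 CPM (exact permutation p = 0.0857), but 9 of its 10 genes were lower on average and *Cdh5*, *Kdr*, *Emcn* and *Esam* were lower without overlap and called by DESeq2. The smooth muscle, mesothelial, adipocyte and skeletal muscle sums overlapped between genotypes. The part of these cell types in the levels of *Prg4*, *Lum*, *Cd44* and *Has2* was not tested, and in RNA of a whole aorta more cells of a type and more RNA per cell cannot be told apart.

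Among 117 further genes of the same biology, 106 were tested and edgeR called none in either direction. At an unadjusted p below 0.05 edgeR had 20 higher and 3 lower, against 1084 and 629 of all 15077 genes, limma-voom called 0, and DESeq2 called 8 higher and 0 lower. In 12 of them (11.3%) every ApoE-/- mouse was above every WT mouse and in 2 below, against 5.41 % and 3.3 % of all genes. The 8 were 7.84% of those to which DESeq2 gave an adjusted p, beside 3.23 % of all genes. Of the log2 fold changes 76 were above and 30 below 0, with a median of 0.17. Over all genes tested 8747 were above and 6330 below 0, with a median of 0.05.

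DESeq2 called *Cemip*, *Chpf*, *Itih4* and *Tnfaip6* in all 8 fits that left out 1 mouse. *Sdc3* lost the call in 2 of them (without ApoE-/- replicate 3 or WT replicate 3), *Gusb* and *Adamts4* in 6 each and *Itih3* in 7, with all 4 lost without ApoE-/- replicate 3. EdgeR called *Cemip*, *Chpf*, *Itih4*, *Tnfaip6*, *Gusb* and *Itih3* without ApoE-/- replicate 1 and in no other of its 8 fits. DESeq2 called 2 of 8 tested genes of hyaluronan breakdown and 3 of 9 hyaluronan receptors and binding proteins. Of 4 link proteins and further aggregating proteoglycans it called 0 and gave 1 no adjusted p. In this last group edgeR had 1 gene higher at an unadjusted p below 0.05. *Cemip*, which encodes a hyaluronan-degrading protein, was at 3.86, 8.27, 38.4 and 28.1 CPM in ApoE-/- and at 2.20, 1.69, 2.55 and 2.06 CPM in WT, with a log2 fold change of 3.21, SE 0.69, an edgeR adjusted p of 0.0897 and a DESeq2 adjusted p of 4.4e-05. Replicates 3 and 4 were far above replicates 1 and 2, and all 4 above WT. *Tnfaip6*, which encodes TSG-6, a secreted protein that links hyaluronan to the heavy chains of inter-alpha-inhibitor, was at 5.32, 7.04, 10.2 and 9.24 CPM in ApoE-/- and at 2.80, 3.74, 2.88 and 3.30 CPM in WT (log2 fold change 1.32, SE 0.24, edgeR adjusted p 0.0576, DESeq2 adjusted p 0.000157). Of the genes of that heavy chain family, *Itih4* had means of 351 ± 243 against 74.6 ± 24.9 CPM without overlap (SD, n = 4; DESeq2 adjusted p 0.000141) and *Itih3* means of 18.7 ± 10.9 against 7.17 ± 1.53 CPM with overlap (DESeq2 adjusted p 0.0319). *Gusb*, a lysosomal enzyme that trims hyaluronan and other sugar chains, was at 68.9 ± 26.1 against 35.1 ± 1.97 CPM (DESeq2 adjusted p 0.0207). Of 4 hyaluronan synthesis genes, the precursor enzyme genes *Ugp2* and *Ugdh* were the most abundant per length, with means of 116 ± 25.6 against 97.9 ± 7.73 and 61.1 ± 14.0 against 40.9 ± 2.63 CPM, and neither passed in edgeR or DESeq2. Without ApoE-/- replicate 1 both tests called *Ugdh* higher.

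The remaining 3 genes called by DESeq2 were *Sdc3*, a cell-surface heparan sulfate proteoglycan, at 155 ± 56.1 against 75.8 ± 9.73 CPM (adjusted p 0.00927), *Chpf*, a chondroitin chain-lengthening factor, at 69.1 ± 12.5 against 43.5 ± 2.01 CPM (adjusted p 0.00114), and *Adamts4*, a protease that cuts aggrecan and versican, at 7.35 ± 0.72 against 4.89 ± 0.84 CPM (adjusted p 0.0435). *Sdc3* was highest in ApoE-/- replicate 1, at 215 CPM, where the 10 genes of the main list were lowest. The other small leucine-rich genes had no call by edgeR or DESeq2 in 12 tested with all 8 mice, with 1 lower at an unadjusted edgeR p below 0.05 and 6 log2 fold changes above and 6 below 0. Of these, *Podn*, named after its values were seen, was lower in every ApoE-/- mouse (57.4 to 92.0 CPM) than in any WT mouse (96.2 to 116 CPM), and DESeq2 called it lower without ApoE-/- replicate 1 and without ApoE-/- replicate 4. Their most abundant members per length were *Ogn*, encoding osteoglycin, at 813 ± 446 against 775 ± 159 CPM, and *Prelp* at 326 ± 168 against 299 ± 47.3 CPM. The abundant aggrecan-cutting proteases *Adamts1* and *Adamts5* were at 410 ± 164 against 552 ± 141 and 129 ± 19.4 against 123 ± 7.98 CPM, with edgeR adjusted p-values of 0.734 and 0.901.

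The genes below, the most abundant per length of the other groups, did not pass either test with all 8 mice. The lysosomal enzyme gene *Hexa*, whose product removes sugars from hyaluronan fragments, was at 115 ± 46.2 against 72.2 ± 8.87 CPM, with an edgeR unadjusted p below 0.05 and an adjusted p of 0.364, and DESeq2 called it higher without ApoE-/- replicate 1. The hyaluronan scavenger receptor gene *Stab1* was at 271 ± 88.7 against 227 ± 21.6 CPM. Of 11 tested heparan sulfate proteoglycan genes, the basement membrane collagen gene *Col18a1* was at 837 ± 429 against 777 ± 234 CPM and the syndecan gene *Sdc4* at 216 ± 39.4 against 188 ± 23.0 CPM. Among 25 genes of linker and chondroitin chain synthesis, *Papss2*, which makes the sulfate donor, was at 57.7 ± 17.95 against 78.5 ± 11.3 CPM and was called lower by DESeq2 without ApoE-/- replicate 4, and *Csgalnact2*, which starts chondroitin chains, at 93.7 ± 29.0 against 88.9 ± 6.72 CPM. The heparan sulfate 6-O-endosulfatase genes *Sulf1* and *Sulf2* were at 440 ± 202 against 290 ± 59.3 and at 201 ± 68.1 against 170 ± 8.47 CPM, and without ApoE-/- replicate 1 both tests called *Sulf1* higher. The pericyte and smooth muscle proteoglycan gene *Cspg4* was at 577 ± 299 against 457 ± 99.9 CPM. The testican gene *Spock2* was at 408, 49.7, 63.1 and 60.3 CPM in ApoE-/- and at 94.3, 111, 74.9 and 107 CPM in WT, so that replicate 1 was above and the other 3 knockout mice below every WT mouse. DESeq2 gave *Spock2* no adjusted p with all 8 mice, and both tests called it lower without ApoE-/- replicate 1. The link protein gene *Hapln3* and the brevican gene *Bcan*, both rare, were at 2.62 ± 0.96 against 2.74 ± 0.67 and at 4.00 ± 4.77 against 2.14 ± 0.69 CPM.

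**Figure D5:**
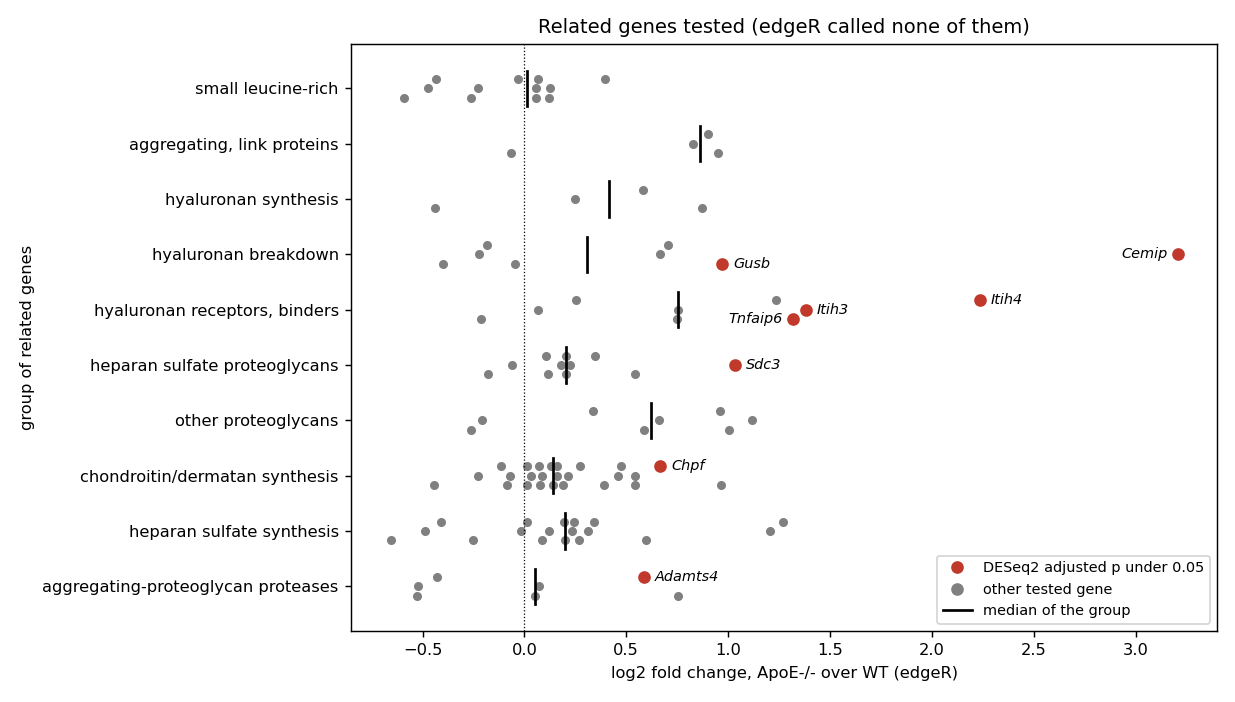
Log2 fold change (ApoE-/- over WT, edgeR) of 106 tested genes related to the 10, in 10 groups by role, with a bar at each group's median. Red points are the 8 genes with a DESeq2 adjusted p below 0.05, led by *Cemip* at 3.21 and *Itih4* at 2.24, and the small leucine-rich group is centred at 0.01.

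For each of the 10 genes the 3 tested genes with the most alike profile over 8 libraries were found, by the root mean square distance between centred log2 CPM values. Closest to *Prg4* were *Serpina3n* (0.274), *Gpr35* (0.304) and *Slc15a3* (0.315), all of which rose in edgeR with adjusted p-values of 0.0355, 0.0355 and 0.0396. Without ApoE-/- replicate 3 those calls ended, since edgeR then called 0 of all genes (1556 at an unadjusted p below 0.05, and 530 called by DESeq2). *Vcam1* (0.198), *Lgals3* (0.219) and *Slc15a3* (0.219) were closest to *Lum*, and *Tnfaip6* (0.184), *Col3a1* (0.191) and *Selp* (0.192) to *Cd44*. *Tgfb2* came first for both *Vcan* (0.148) and *Bgn* (0.0820), and *Aebp1* was among the 3 for both. *Has2* was nearest to *Ptgir*, *Rasal3* and *Orm2* at 0.174 to 0.185, *Dcn* to *Clec11a*, *Serping1* and *1700019D03Rik* at 0.0926 to 0.107, and *Hspg2* to *Gli2*, *Ttc28* and *Gm20696* at 0.0953 to 0.116. *Hapln1* was nearest to *Traf5*, *Otogl* and *Myo1h* at 0.115 to 0.127. No gene came close to *Acan*, whose nearest, *Fzd9*, *Cilp2* and *Stk32b*, were at 0.544 to 0.552.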

How the data were processed

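Total RNA of whole aortas was sequenced as stranded, ribodepleted, paired-end libraries with reads of 50 bases. For each library the authors deposited raw counts, whole numbers of read pairs assigned to each gene. The submitters' processing notes name TopHat2, HTSeq, GRCm38 and mm10, and versions and the annotation release are not given in the sources used here. Rows that name no gene stayed out of library sizes (pairs without a gene were 50.1 to 54.7% of all in ApoE-/- and 56.4 to 58.0% in WT, non-unique ones 11.8 to 14.3%). Counts were tested with edgeR 4.0.16 in R 4.3.3 (TMM, filterByExpr, robust quasi-likelihood F test, Benjamini-Hochberg over 15077 genes, threshold 0.05). DESeq2 1.42.0, which the authors used (run here without independent filtering), and limma-voom 3.58.1 were alternatives, with other scalings, filters, a replicate block and each mouse left out. Single values were compared by exact two-sided permutation. Scripts were tested on simulated data. Exon lengths, overlaps and sequence came from GENCODE on GRCm38, where 42 of 21859 gene identifiers were not found. Errors of CPM values are SDs over mice, and errors of log2 fold changes are standard errors from the edgeR fit. No replicate was found to be a duplicate of another.

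The 10 genes and the lists of related and marker genes were chosen with earlier results of these data known, and the sympathetic neuron list after the values were seen. Named besides the 10 are related genes past the threshold in edgeR or, since edgeR called fewer than 6, DESeq2, the 2 most abundant related genes per length in each group, and the 3 nearest profiles of each gene. The rule also names 1 gene that is not reported here.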

Additional observations from a re-analysis of the deposited data

Results flagged for a closer look

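In 36 groups of 4 mice tested for a value far from the others, 2 passed Dixon's critical value, and chance alone passes about 1.8 of 36. *Acan* in ApoE-/- replicate 3 was at 123 CPM, and its gap to the nearest mouse was 0.833 of the range of the 4. *Sdc3* in WT replicate 3 was at 61.2 CPM, below the other WT mice, with a gap of 0.909 of the range.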

How the results depend on the processing

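Over all genes tested, edgeR called 70, DESeq2 725, limma-voom 27 and the fit with a replicate block 2, while 2 other scalings, 2 other filters and no robust estimation gave 63 to 74. Leaving out 1 mouse gave 0 to 593 genes in edgeR, with 593 without ApoE-/- replicate 1, and in DESeq2 1562, 711, 530 and 706 without ApoE-/- replicates 1 to 4 in turn and 472, 503, 453 and 445 without WT replicates 1 to 4. Of the 10 genes, edgeR called 1 higher, DESeq2 4, and edgeR with 1 mouse left out 0 to 4 (4 only without ApoE-/- replicate 1, 0 without ApoE-/- replicate 3, ApoE-/- replicate 4 or any WT mouse). DESeq2 with 1 mouse left out called 4 to 7 of them, 7 without ApoE-/- replicate 1. Of the related genes, edgeR called 0 in either direction and DESeq2 8 higher, and with 1 mouse left out edgeR called 0 to 13 higher and 0 to 1 lower while DESeq2 called 24, 7, 5 and 5 higher without ApoE-/- replicates 1 to 4 in turn, 5, 5, 4 and 7 without WT replicates 1 to 4, and 0 to 4 lower, with 3, 1 and 4 without ApoE-/- replicates 1, 3 and 4. Without ApoE-/- replicates 1 and 3, chosen after seeing the data, the counts were 822 genes, 4 of the 10 higher, and 12 related genes higher and 2 lower in edgeR, and 1781, 6, 17 and 6 in DESeq2. Same-numbered mice did not deviate together (r of 0.059, -0.448, 0.316 and 0.162 over genes), and with the replicate number as a block 1 gene rose and 1 fell over all genes, the former *Prg4*. Directions turned, always at adjusted p-values above 0.05, for *Dcn* without ApoE-/- replicate 4 (-0.0034, DESeq2 -0.0104, at most 0.453 without another mouse), *Acan* without ApoE-/- replicate 3 (-0.0911, DESeq2 -0.0957, at most 1.6439 without another mouse), *Hspg2* in limma-voom (-0.0492), under the replicate block (-0.0474), without ApoE-/- replicates 1 and 3 (-0.077, DESeq2 -0.0736) and over single mice left out (-0.2559 to 0.2398, DESeq2 -0.0407 and -0.2609 without ApoE-/- replicates 2 and 3, -0.0254 and -0.0216 without WT replicates 2 and 4), and *Hapln1* over single mice left out (-0.1547 to 0.2889, DESeq2 -0.0487 and -0.1606 without ApoE-/- replicates 2 and 3, -0.0341 and -0.0694 without WT replicates 1 and 4). The cause of these changes was not tested. With 4 mice a genotype, no permutation p can be below 0.0286, and *Has2* had 30 to 110 read pairs per library. Per kilobase of the longest transcript, an alternative chosen after seeing the data, *Bgn* and *Dcn* changed places in WT.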
